A study of Mus musculus with 15 samples.

Results

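The interleukin-6 family genes examined here are the cytokines *Il6*, *Il11*, *Lif* and *Osm*, the receptor chains *Il6ra*, *Il6st*, *Lifr* and *Osmr*, the transcription factor *Stat3* and the inhibitor *Socs3*. They were taken by symbol from the deposited table and are 10 of its 56832 genes. The rule uses no measured value, but the genes were picked with earlier results of these data known. The table holds bulk RNA-sequencing counts of mesenchymal stromal cells (MSCs) grown from the long-bone marrow of 16 week old mice on a C57BL/6J background. TauT+/+ mice are wild type, and TauT-/- mice lack *Slc6a6*, the gene of the taurine transporter TauT, in all tissues, so the loss is not limited to MSCs. There were 4 TauT+/+ and 4 TauT-/- libraries labelled male, and 3 TauT+/+ and 4 TauT-/- libraries labelled female. The labels describe CD45-negative cultures obtained by magnetic sorting, and the study kept its MSC cultures at low oxygen. The labels do not say whether each library is a separate animal, so p-values measure the spread between these libraries, which may be technical in part.

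Cytokines of this family share the signalling chain gp130, which is encoded by *Il6st*. IL-6 and IL-11 first bind their own receptor chains and then gp130, whereas LIF and oncostatin M signal through gp130 paired with the LIF receptor or, for oncostatin M, with the oncostatin M receptor. JAK kinases bound to these chains phosphorylate STAT3, which enters the nucleus and switches on genes that include *Socs3*, whose product binds gp130 and shuts the signal off. In the marrow these cytokines come from stromal cells, osteoblasts and macrophages, and they act on bone formation, osteoclasts and blood cell production.

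Total counts ranged from 69764291 to 101575071 in male-labelled and from 12761107 to 20781070 in female-labelled libraries, so depth and labelled sex cannot be told apart, and either depth held both genotypes. *Slc6a6* had 586 to 2655 CPM in TauT+/+ and 392 to 1571 CPM in TauT-/- libraries, where CPM is the count scaled to a common library size by TMM. Its log2 fold change in TauT-/- against TauT+/+ libraries was −0.94 (SE 0.37, edgeR adjusted p = 0.141). The genotypes overlapped, so libraries are named by their labels throughout. A gene-level count does not separate the deleted part of *Slc6a6* from the rest. Sex-linked genes went against the label in 3 libraries, namely TauT+/+ male 1, TauT-/- male 1 and TauT+/+ female 3. TauT+/+ male 1 and TauT+/+ female 1 were near-identical, with a spread of 0.11 on the log2 scale over 9102 genes against a counting error of 0.06. The same held for TauT-/- male 1 and TauT-/- female 1, with a spread of 0.10 against 0.05, while the next closest of the 105 pairs of libraries differed by 0.25. In both pairs the male-labelled library was among those with sex-linked genes against the label. Both pairs differed by more than counting error, which does not show that the libraries of a pair are independent. All 15 libraries were kept by label and entered the means, SDs and fits as separate libraries. Values without the male-labelled or the female-labelled side of these pairs are given for *Osm*, *Lif*, *Il6ra*, *Lifr*, *Stat3* and *Socs3*.

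All 10 genes had reads in all 15 libraries, passed the filter on low counts and were tested. With edgeR's quasi-likelihood test and a Benjamini-Hochberg threshold of 0.05, 0 of the 10 were lower and 0 were higher in TauT-/- MSCs. Over all 18263 genes tested, 108 were called lower (0.591%) and 103 higher (0.564%), or 1.16% in either direction. At an unadjusted p under 0.05, *Lifr* was lower and *Il6ra* and *Stat3* were higher, which is 3 of 10 genes beside 23.6% of all genes tested (11.8% in each direction). DESeq2 also called 0 of the 10, beside 11.5% of all genes. The median log2 fold change of the 10 genes was 0.19, with 7 above and 3 below 0, and that of all genes tested was 0.00 (0.0049). In 0 of the 10 genes did every TauT-/- library lie above every TauT+/+ library (0.783% of all genes) or below it (0.334%).

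**Figure D1:**
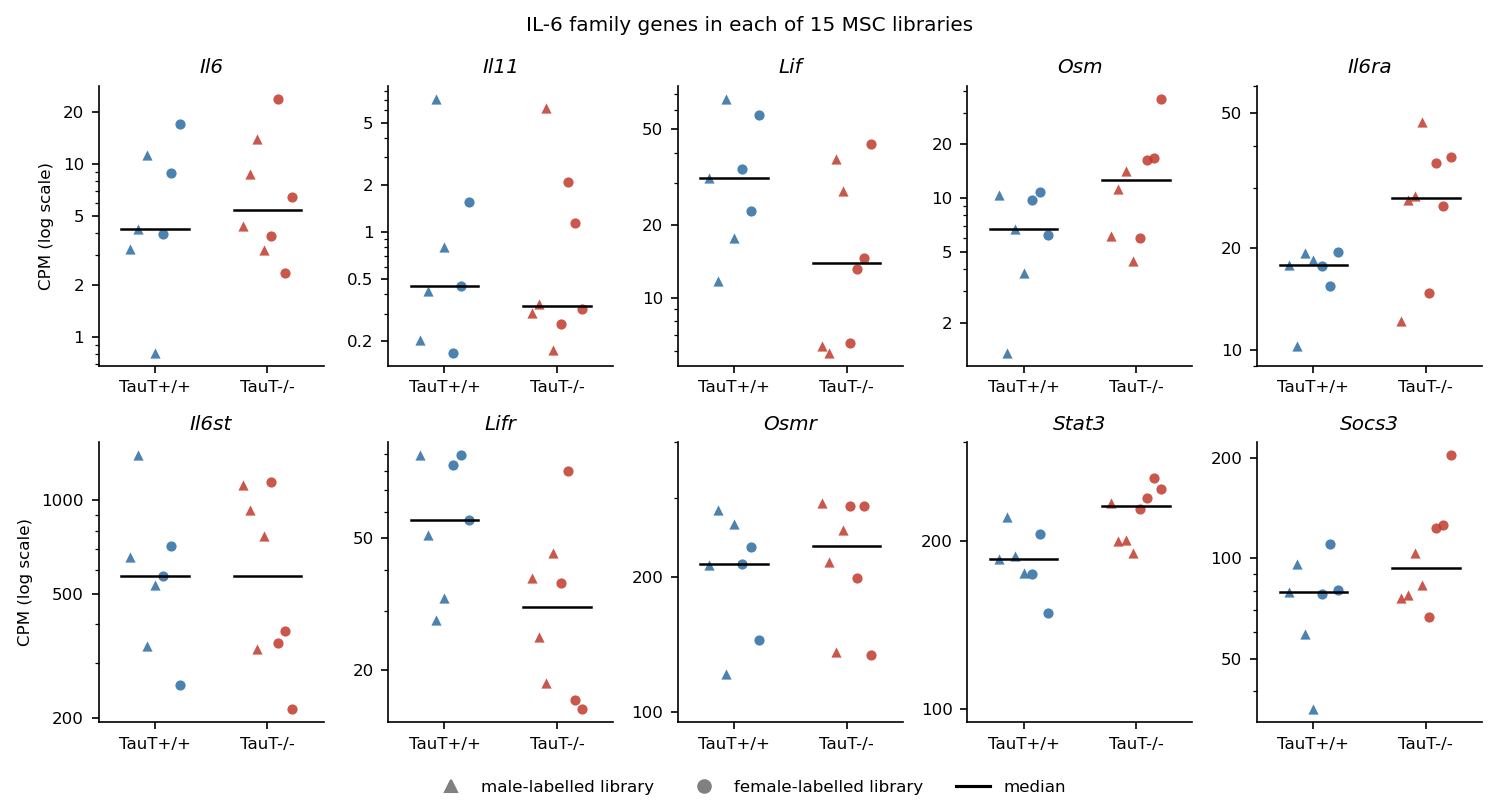
Level of each gene in CPM (vertical axis, log scale with its own range in each panel) in 7 TauT+/+ (blue) and 8 TauT-/- (red) libraries, with triangles for male-labelled and circles for female-labelled libraries and a line at the median. The genotypes overlap in all 10 panels, and the medians of *Il6ra* (17.8 and 28.1 CPM) and *Lifr* (56.6 and 30.9 CPM) lie furthest to opposite sides among the receptor chains.

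Among the ligands, *Osm* and *Lif* had the largest fold changes, in opposite directions, and neither passed the test. *Osm* encodes oncostatin M, which is made mainly by macrophages and other blood cells and acts on osteoblasts and their precursors. In male-labelled TauT+/+ libraries 1 to 4 it had 10.4, 1.36, 6.69 and 3.78 CPM, and in female-labelled TauT+/+ libraries 1 to 3 it had 9.76, 10.8 and 6.24 CPM. The corresponding TauT-/- values were 6.16, 11.2, 14.2 and 4.42 CPM in male-labelled libraries 1 to 4 and 5.99, 16.3, 16.8 and 36.1 CPM in female-labelled libraries 1 to 4. Thus 5 of 8 TauT-/- libraries lay above every TauT+/+ library, while the other 3 fell inside the TauT+/+ range. Mean levels were 7.0 ± 3.57 (SD, n = 7) and 13.9 ± 10.2 CPM (SD, n = 8), so that the log2 fold change was 0.87 (SE 0.43, edgeR adjusted p = 0.238). Within the sex labels it was 0.69 (SE 0.60) in male-labelled and 1.07 (SE 0.66) in female-labelled libraries. Female-labelled TauT-/- library 4 had the most *Osm*, and without it the log2 fold change of *Osm* was 0.60. Without TauT+/+ male 1 and TauT-/- male 1 it was 1.19 (unadjusted p = 0.0209, edgeR adjusted p = 0.151), and without TauT+/+ female 1 and TauT-/- female 1 it was 0.96 (unadjusted p = 0.0531, adjusted p = 0.255).

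Summed over 15 macrophage markers, TauT+/+ libraries had 1382 to 9368 CPM (median 7852) and TauT-/- libraries 6374 to 20730 CPM (median 15350). *Lyz2* alone averaged 3845 CPM in TauT+/+ and 7801 CPM in TauT-/- libraries, so the sum follows its most abundant marker and does not measure macrophage content. All 15 of these markers had a higher point estimate in TauT-/- libraries (median log2 fold change 1.01). At an unadjusted p under 0.05, 12 were higher, beside 11.8% of all genes tested. Past the adjusted threshold was 1, *Cd68*, beside 0.564% of all genes, and 0 of the 15 were at 0 in any library. *Ptprc*, which encodes CD45, the protein the sorted cultures should lack, had 28.6 to 177 CPM in TauT+/+ and 112 to 379 CPM in TauT-/- libraries. The library with the least *Osm*, TauT+/+ male 2, also had the lowest macrophage sum (1382 CPM), and the library with the most *Osm*, TauT-/- female 4, had the highest (20730 CPM). Other libraries departed from this order. TauT-/- male 4 had the least *Osm* of its genotype (4.42 CPM) at a macrophage sum of 15380 CPM. TauT+/+ female 2 had the most *Osm* of its genotype (10.8 CPM) at 7299 CPM, below the TauT+/+ median. Of 12 MSC markers 7 had lower and 5 higher point estimates. At an unadjusted p under 0.05, 2 were lower (*Pdgfra* and *Pdgfrb*) and 1 higher (*Cd44*), beside 11.8% of all genes tested in each direction. The sum of the 12 was 20060 to 37090 CPM in TauT+/+ and 4922 to 27410 CPM in TauT-/- libraries, lowest in TauT-/- female 4. That sum follows its most abundant markers and does not measure MSC content: in TauT+/+ male 1 *Cxcl12* had 23170 and *Col1a1* 10740 of 37090 CPM. *Lepr*, a receptor that marks marrow stromal cells in the animal, was near or at 0, with at most 2.37 CPM in any library, whereas *Col1a1* had at least 2400 CPM in every library. Sums of other markers were at most 7.07 CPM for lymphoid and 0.563 CPM for erythroid markers, and at most 54.9 CPM for neutrophil markers, mostly *Camp* and *S100a8*. Endothelial markers summed to 7.78 to 19.0 CPM (median 15.2) in TauT+/+ and 11.8 to 119.7 CPM (median 33.5) in TauT-/- libraries, highest in TauT-/- female 4. Of 7 tested endothelial markers 5 had higher and 2 lower point estimates. Beside 11.8% of all genes tested, 2 of the 7 were higher at an unadjusted p under 0.05, and were named after their values were seen. These were *Kdr* (log2 fold change 2.17, edgeR adjusted p = 0.0564), with 0.559 to 5.17 CPM in TauT+/+ and 4.64 to 35.8 CPM in TauT-/- libraries, and *Vwf* (1.35, adjusted p = 0.174). *Emcn* and *Tie1* were at 0 in at least 1 library. The part of these markers in the values of the IL-6 family genes was not tested. In bulk samples, fewer cells of a type and less RNA per cell cannot be told apart.

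*Lif* encodes leukaemia inhibitory factor, which acts on osteoblasts, adipocyte precursors and stem cells. Its levels were 31.5, 11.7, 66.9 and 17.8 CPM in male-labelled TauT+/+ libraries 1 to 4, and 34.1, 22.9 and 57.3 CPM in female-labelled TauT+/+ libraries 1 to 3. TauT-/- libraries had 6.30, 5.91, 37.5 and 27.6 CPM when labelled male, and 6.501, 13.2, 14.6 and 43.2 CPM when labelled female. The values of both genotypes spread widely, and 3 of 8 TauT-/- libraries lay below every TauT+/+ library, 2 of which are the near-identical TauT-/- male 1 and female 1. Mean *Lif* was 34.6 ± 20.5 (SD, n = 7) and 19.4 ± 14.9 CPM (SD, n = 8), with a log2 fold change of −0.84 (SE 0.51, edgeR adjusted p = 0.333). It was −0.72 (SE 0.72) in male-labelled and −0.98 (SE 0.77) in female-labelled libraries. *Lif* in TauT-/- female 4, the library with the highest macrophage sum, was the highest of the TauT-/- values, and without that library the log2 fold change of *Lif* was −1.18. It was −0.73 without the male-labelled and −0.74 without the female-labelled side of the near-identical pairs.

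*Osm* and *Lif* are neighbours on mouse chromosome 11 of GRCm39, at chr11:4186420-4191026 and chr11:4207557-4222514, both on the forward strand. They are 16.5 kb apart with 0 annotated protein-coding genes between them. The 250 bases before the start of each gene's main annotated transcript are shown because the genes lie side by side yet had fold changes of opposite sign. Capitals mark a match to the AP-1 motif TGANTCA, and both windows are from the forward strand of GRCm39 (Osm, chr11:4186170-4186419 and Lif, chr11:4207307-4207556).
Osm: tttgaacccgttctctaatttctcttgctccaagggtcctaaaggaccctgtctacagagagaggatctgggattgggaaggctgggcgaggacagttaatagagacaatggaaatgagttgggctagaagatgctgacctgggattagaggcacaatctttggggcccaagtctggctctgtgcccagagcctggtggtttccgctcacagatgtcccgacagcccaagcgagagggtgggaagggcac
Lif: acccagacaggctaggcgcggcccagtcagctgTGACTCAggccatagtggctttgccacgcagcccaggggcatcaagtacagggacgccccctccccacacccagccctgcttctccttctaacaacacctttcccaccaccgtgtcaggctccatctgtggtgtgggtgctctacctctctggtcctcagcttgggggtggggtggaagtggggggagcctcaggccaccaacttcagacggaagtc
The *Lif* window held the AP-1 motif 217 bases before the start, while the *Osm* window held neither it nor the STAT motif TTCNNNGAA, searched on both strands. The AP-1 motif was found in 6.18% and the STAT motif in 7.7% of 21757 promoter windows of the same length. Such a match is a description of the letters, not evidence of a bound factor, and the motifs were chosen after the values were seen. On the log2 scale with 0.5 CPM added, the ratio of *Osm* to *Lif* was −2.22 ± 0.82 (SD, n = 7) in TauT+/+ libraries, from −3.23 to −1.06. The TauT-/- ratio of *Osm* to *Lif* was −0.37 ± 1.08 (SD, n = 8), from −2.52 to 0.87. The ratio, which is not adjusted for gene length, was below 0 in 7 of 7 TauT+/+ and 5 of 8 TauT-/- libraries, and the genotypes overlapped through TauT-/- male 3 (−1.37) and male 4 (−2.52). The ratio was chosen after the values were seen and carries no test.

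**Figure D2:**
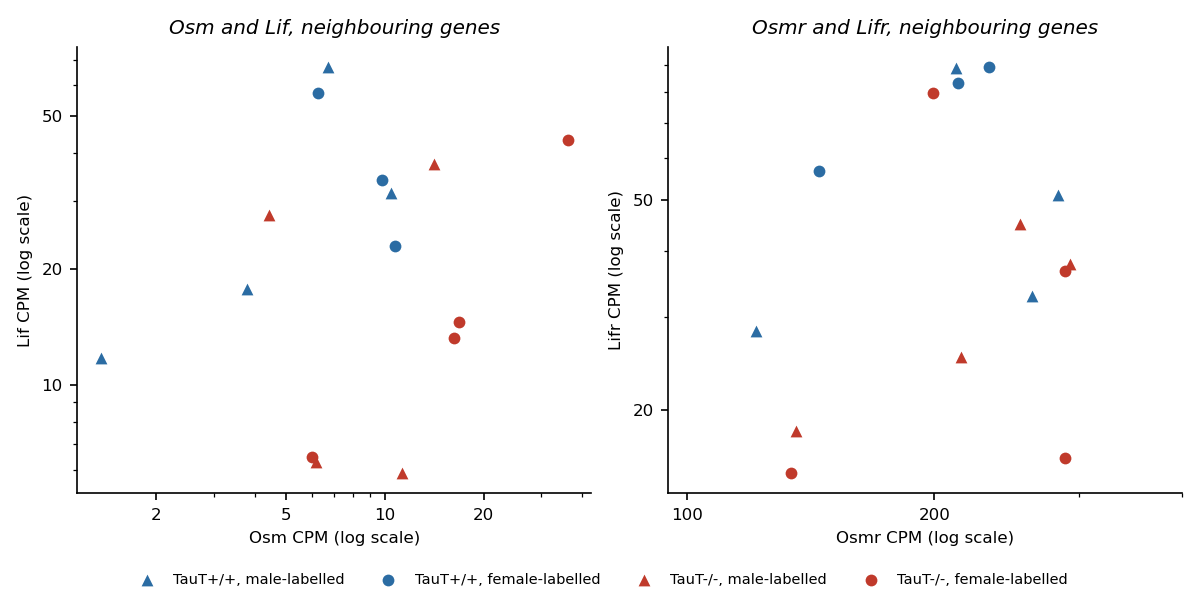
Levels of *Lif* against *Osm* (left) and of *Lifr* against *Osmr* (right) in each of 15 libraries, both axes in CPM on log scales, coloured by genotype (blue TauT+/+, red TauT-/-) and shaped by sex label (triangles male, circles female). The TauT-/- libraries reach the highest *Osm* (36.1 CPM) and the lowest *Lif* (5.91 CPM) and *Lifr* (15.2 CPM), while *Osmr* spans a similar range in both genotypes (121 to 283 CPM and 134 to 293 CPM).

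*Il6*, the founding cytokine of the family, which stromal cells and macrophages release in inflammation, was low and variable. In the TauT+/+ libraries labelled male its level was 3.25, 4.25, 11.3 and 0.812 CPM and in those labelled female 3.98, 8.97 and 17.03 CPM. TauT-/- levels of *Il6* were 4.40, 8.85, 14.04 and 3.22 CPM under the male label and 3.84, 23.98, 2.34 and 6.51 CPM under the female label. The genotypes overlapped almost fully, with 1 of 8 TauT-/- libraries above every TauT+/+ library. The log2 fold change of *Il6* was 0.28 (95% interval −0.97 to 1.54, edgeR adjusted p = 0.805). It took opposite signs under the sex labels, 0.63 (SE 0.82) in male-labelled and −0.12 (SE 0.88) in female-labelled libraries, and also went below 0 without TauT-/- male 3 (−0.01, or −0.0099) or TauT-/- female 2 (−0.15). *Il6* lies at chr5:30218112-30224979 on the forward strand, and the AP-1 motif stands at the far edge of its window, 249 bases before the start (chr5:30217862-30217879), in the stretch below.
Il6: cTGAGTCActtttaaaga

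*Il11*, a cytokine of stromal cells that acts on bone and platelet formation, was the least expressed of the 10 genes. It had 0.202, 0.422, 7.11 and 0.799 CPM in male-labelled TauT+/+ libraries 1 to 4, and 0.168, 0.449 and 1.56 CPM in the female-labelled ones. In TauT-/- libraries *Il11* had 0.302, 0.348, 6.18 and 0.175 CPM when labelled male and 0.256, 2.08, 1.14 and 0.323 CPM when labelled female. In each genotype a single male-labelled library, the third, stood well above the rest. The log2 fold change was −0.01 (−0.0059; 95% interval −2.08 to 2.07, edgeR adjusted p = 0.998). This value is too close to 0 to have a stable sign: it was 1.11 without TauT+/+ male 3, −1.38 without TauT-/- male 3, and also above 0 without several other single libraries. *Il11* is on the reverse strand at chr7:4775372-4785858, and the AP-1 motif lies 98 bases before the start of its main annotated transcript, at chr7:4781222-4781248. That transcript starts inside the annotated gene, so the stretch lies within the gene. It is shown with 10 bases on each side because it is the third of the 10 windows, with *Il6* and *Lif*, that held this motif.
Il11: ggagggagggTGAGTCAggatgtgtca

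Of the receptor chains, *Il6ra* and *Lifr* differed most, and again in opposite directions. *Il6ra* encodes the chain that binds IL-6 itself and limits which cells answer it directly. It had 17.8, 10.3, 19.4 and 18.5 CPM in male-labelled TauT+/+ libraries 1 to 4 and 17.7, 15.5 and 19.4 CPM in female-labelled ones. The TauT-/- values of *Il6ra* were 12.2, 27.6, 28.5 and 47.1 CPM in male-labelled and 14.7, 35.5, 26.5 and 37.1 CPM in female-labelled libraries. Hence 6 of 8 TauT-/- libraries lay above every TauT+/+ library, and the other 2, the near-identical TauT-/- male 1 and female 1, lay inside the TauT+/+ range. Mean levels were 16.9 ± 3.22 (SD, n = 7) and 28.7 ± 11.5 CPM (SD, n = 8), so that the log2 fold change was 0.76 (95% interval 0.21 to 1.31, SE 0.26). This is 1.69-fold, with an unadjusted p of 0.0106 and an edgeR adjusted p of 0.108. By DESeq2 the adjusted p of *Il6ra* was 0.0513. The log2 fold change was alike under both labels, which are not independent because of the near-identical pairs. It was 0.81 (SE 0.36) in male-labelled and 0.70 (SE 0.40) in female-labelled libraries. Without the male-labelled libraries of the near-identical pairs it was 0.88 (edgeR adjusted p = 0.0925), without the female-labelled ones 0.85 (adjusted p = 0.13), and without the 3 libraries with discordant sex-linked genes 0.95 (adjusted p = 0.163). The macrophage sums of TauT-/- male 1 and female 1, where *Il6ra* was lowest among TauT-/- libraries, were also the lowest of that genotype (6374 and 6869 CPM), and TauT+/+ male 2 had both the lowest *Il6ra* and the lowest macrophage sum. The most *Il6ra* was in TauT-/- male 4 (47.1 CPM), whose macrophage sum (15380 CPM) was not the highest.

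*Lifr*, the receptor chain for LIF that stromal and bone-forming cells carry, had 89.0, 51.0, 28.2 and 32.8 CPM in male-labelled TauT+/+ libraries 1 to 4 and 83.4, 89.2 and 56.6 CPM in female-labelled ones. In TauT-/- libraries *Lifr* had 37.8, 25.2, 18.2 and 44.9 CPM when labelled male and 36.6, 79.5, 16.2 and 15.2 CPM when labelled female. Thus 4 of 8 TauT-/- libraries lay below every TauT+/+ library, and TauT-/- female 2 alone of its genotype lay in the upper TauT+/+ range. Mean levels were 61.5 ± 26.0 (SD, n = 7) and 34.2 ± 21.4 CPM (SD, n = 8), so that the log2 fold change was −0.85 (95% interval −1.62 to −0.07, SE 0.36). The unadjusted p was 0.0349 and the edgeR adjusted p 0.179. *Lifr* was at −0.67 (SE 0.51) in male-labelled and −1.05 (SE 0.55) in female-labelled libraries. Without the male-labelled libraries of the near-identical pairs it was −0.74, without the female-labelled ones −0.79 and without the 3 libraries named above −0.77, each at an unadjusted p above 0.05 (0.0785, 0.0837 and 0.0894).

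*Il6st* and *Osmr*, which encode gp130 and the oncostatin M receptor, had medians close to each other in the genotypes, with intervals that allow differences in either direction. *Il6st* ranged from 255 to 1398 CPM (median 574) in TauT+/+ and from 214 to 1143 CPM (median 574) in TauT-/- libraries. *Osmr*, the chain that pairs with gp130 for oncostatin M, ranged from 121 to 283 CPM (median 213) and from 134 to 293 CPM (median 235). The log2 fold change was 0.06 (95% interval −0.79 to 0.92, edgeR adjusted p = 0.944) for *Il6st* and 0.11 (95% interval −0.37 to 0.60, adjusted p = 0.800) for *Osmr*. The level of *Il6st* differed by up to 6.53-fold between libraries and that of *Osmr* by up to 2.41-fold. *Osmr* (chr15:6843053-6904450, reverse strand) and *Lifr* (chr15:7120095-7226970, forward strand) are neighbours on chromosome 15, 215.6 kb apart with 0 annotated protein-coding genes between them. The log2 ratio of *Lifr* to *Osmr*, with 0.5 CPM added to each, averaged −1.84 ± 0.68 in the 7 TauT+/+ libraries (SD) and −2.86 ± 0.77 in the 8 TauT-/- libraries (SD), a description chosen after the values were seen.

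*Stat3*, the transcription factor that all these receptors use, was the least variable of the 10 genes, with a highest value 1.74-fold the lowest. TauT+/+ libraries had 186, 220, 188 and 176 CPM when labelled male and 174, 206 and 148 CPM when labelled female. *Stat3* in TauT-/- libraries was at 234, 200, 201 and 190 CPM when labelled male and 228, 239, 258 and 247 CPM when labelled female. All 4 female-labelled TauT-/- libraries and male 1 lay above every TauT+/+ library, and the other 3 male-labelled TauT-/- libraries lay within the TauT+/+ range. Mean levels were 185 ± 23.2 (SD, n = 7) and 225 ± 24.9 CPM (SD, n = 8), so that the log2 fold change was 0.27 (95% interval 0.04 to 0.49, SE 0.10), or 1.204-fold. The unadjusted p was 0.0222 and the edgeR adjusted p 0.145. In female-labelled libraries the log2 fold change of *Stat3* was 0.47 (SE 0.14, unadjusted p = 0.00601, edgeR adjusted p = 0.249), and in male-labelled libraries 0.10 (SE 0.13, unadjusted p = 0.457, adjusted p = 0.835). The difference between these had an unadjusted p of 0.0808 and an edgeR adjusted p of 1.00 (0.9999), so it was not past the threshold. TauT-/- male 1, the male-labelled library with the most *Stat3*, is the near-identical partner of TauT-/- female 1. Leaving out the male-labelled or the female-labelled side of the near-identical pairs gave 0.25 and 0.24, each at an unadjusted p above 0.05 (0.0635 and 0.0641, edgeR adjusted p = 0.24 and 0.276). Without the 3 libraries with discordant sex-linked genes, the log2 fold change was 0.17 (adjusted p = 0.429).

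*Socs3*, the feedback inhibitor that STAT3 induces, had 79.5, 95.9, 59.4 and 35.3 CPM in male-labelled TauT+/+ libraries 1 to 4 and 78.2, 110 and 80.5 CPM in female-labelled ones. TauT-/- values of *Socs3* were 76.1, 77.8, 103.6 and 83.2 CPM in male-labelled and 66.9, 123, 126 and 204 CPM in female-labelled libraries. Of the 8 TauT-/- libraries, 3, all labelled female, lay above every TauT+/+ library, and 5 lay inside the TauT+/+ range. Mean levels were 77.0 ± 24.2 (SD, n = 7) and 107.5 ± 44.7 CPM (SD, n = 8), so that the log2 fold change was 0.43 (SE 0.23, edgeR adjusted p = 0.278). It was 0.33 (SE 0.32) in male-labelled and 0.54 (SE 0.35) in female-labelled libraries. The highest *Socs3* was in TauT-/- female 4, which also had the most *Osm* and the highest macrophage sum, and without it the log2 fold change of *Socs3* was 0.27. Without the male-labelled side of the near-identical pairs it was 0.50, and without the female-labelled side 0.46. *Socs3* was the only gene of the 10 genes whose window of 250 bases held the STAT motif TTCNNNGAA, 223 bases before the start of its main annotated transcript, on the reverse strand at chr11:117860328-117860356. The stretch lies within the annotated gene (chr11:117856905-117860898), and the window overlaps an annotated exon. The motif is in capitals with 10 bases on each side.
Socs3: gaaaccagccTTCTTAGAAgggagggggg

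**Figure D3:**
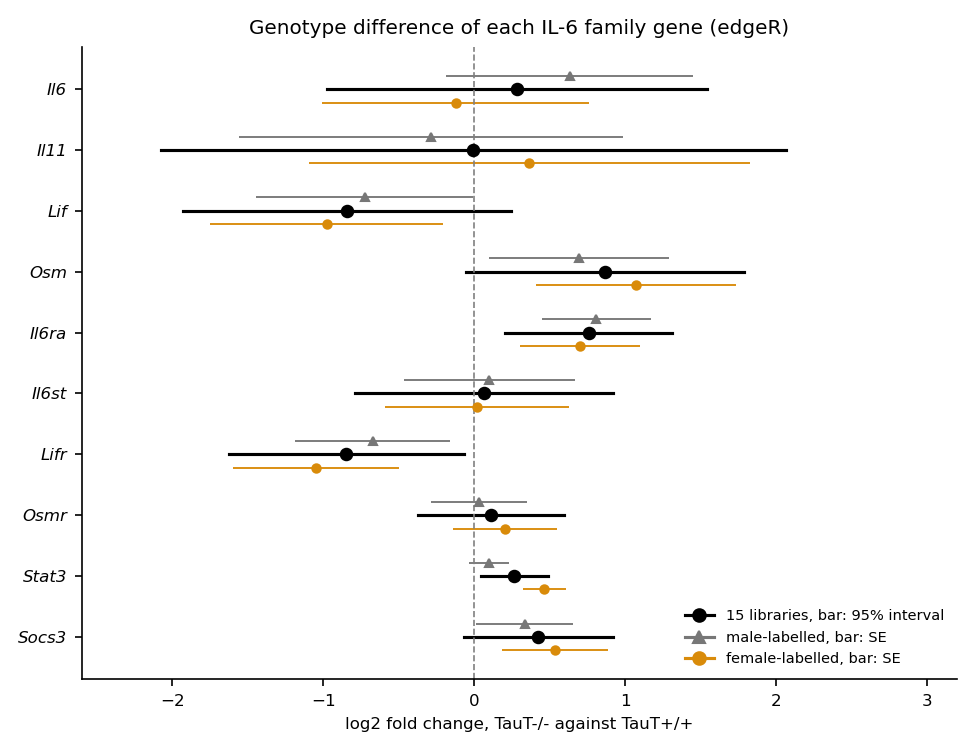
Log2 fold change of each gene in TauT-/- against TauT+/+ libraries by edgeR, with black points and bars for all 15 libraries and their 95% intervals, and grey triangles (male-labelled) and orange circles (female-labelled) with bars of 1 SE. The black intervals of *Il6ra* (0.21 to 1.31), *Stat3* (0.04 to 0.49) and *Lifr* (−1.62 to −0.07) do not cross 0 before adjustment. Of 10 genes 8 have the same sign under both labels, which are not independent, since each holds a library of both near-identical pairs.

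Within the sex labels, 0 genes of the whole table passed the adjusted threshold in male-labelled (0%) or in female-labelled libraries (0%). At an unadjusted p under 0.05, 1588 genes (8.7%) did so in male-labelled libraries, *Il6ra* among them (unadjusted p = 0.0432), and 2702 (14.8%) in female-labelled libraries, *Stat3* among them. Of the 10 genes, 8 had the same sign under both labels, and *Il6* and *Il11* did not. The labels are not independent, since each holds a library of both near-identical pairs, and the share of all genes with the same sign is not given. The difference between the labels passed the adjusted threshold in 0 genes of the table (0%), and 295 (1.62%) were at an unadjusted p under 0.05, with 0 of the 10 among them, since their lowest unadjusted p was 0.0808.

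Levels were compared between genes as CPM per kilobase of merged exon. Merged exons join those of every annotated transcript, used in these cells or not, so the order between genes depends on the annotation. In the order of the medians, *Il6st* was first with 36.9 CPM per kilobase, followed by *Socs3* with 22.6, *Stat3* with 19.9 and *Osmr* with 17.4. The ligands, *Lifr* and *Il6ra* were lower, with 4.98 CPM per kilobase for *Lif*, 4.29 for *Osm*, 2.74 for *Lifr*, 2.19 for *Il6ra*, 1.81 for *Il6* and 0.203 for *Il11*. The ranges of all neighbouring genes in this order overlapped. *Il6* was above *Il11* in 14 of 15 libraries and *Osmr* above *Lif* in 13 of 15, while the other neighbours kept their order in 6 to 11 of 15 libraries. The leading 4 genes and *Il11* held the same places in both genotypes. By its median *Lif* held place 5 in TauT+/+ and place 7 in TauT-/- libraries (6.83 and 3.01 CPM per kilobase), and *Osm* places 7 and 5 (2.94 and 5.59 CPM per kilobase). *Lifr* held place 6 in TauT+/+ and place 9 in TauT-/- libraries (4.11 and 2.24 CPM per kilobase), and *Il6ra* places 8 and 6 (2.01 and 3.17 CPM per kilobase). Between libraries, *Il11* varied most (42.2-fold from lowest to highest), followed by *Il6* (29.5-fold) and *Osm* (26.6-fold).

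**Figure D4:**
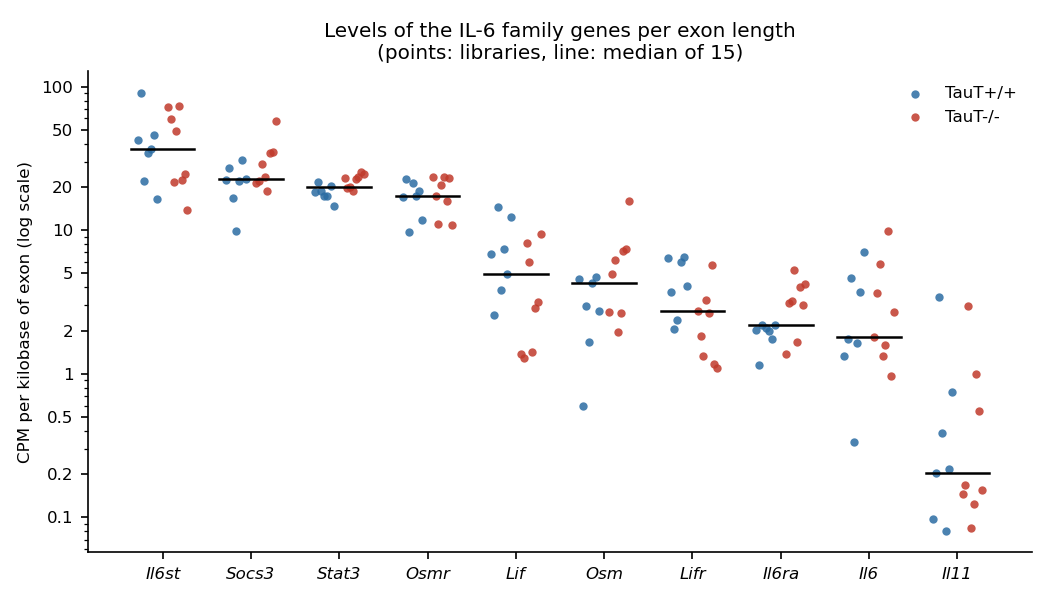
Level of each gene in CPM per kilobase of merged exon (vertical axis, log scale) in 7 TauT+/+ (blue) and 8 TauT-/- (red) libraries, with a line at the median of all 15, in falling order of that median. *Il6st*, *Socs3*, *Stat3* and *Osmr* have medians from 36.9 to 17.4, and *Il11* is lowest at 0.203.

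Across the 15 libraries, Spearman correlations between the 10 genes are given as a description without a test, since the libraries share genotype, depth and composition. *Il6st* and *Osmr* varied together (0.79), and both ran against *Lif* (−0.77 and −0.79). *Osm* and *Socs3* had a correlation of 0.65, *Stat3* and *Socs3* of 0.56, and *Lif* and *Lifr* of −0.01. Among 13193 other genes with a mean of at least 1 CPM, the most alike to *Il6ra* were *Syk* (0.96), *Brd7* (0.96) and *Dok3* (0.96). *Zeb2os* (0.97) was most like *Socs3*, *Pdk3* (0.95) most like *Osmr*, *Parp11* (0.93) most like *Lifr*, *Efna3* (0.92) most like *Il6* and *Sh3gl3* (0.92) most like *Il11*. *Prdx6* (0.92) stood closest to *Lif*, *Asrgl1* (0.91) to *Il6st*, *Rab20* (0.91) to *Osm* and *Slc66a2* (0.88) to *Stat3*. Of the 30 nearest genes, 3 for each of the 10, 16 stayed among the nearest 3 when TauT+/+ male 1 and TauT-/- male 1 were left out.

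The rest of the pathway was examined through lists that hold 51 further genes, of which 47 were tested and *Cntf*, *Ctf2*, *Il31* and *Il31ra* were too low. By edgeR 0 of the 47 were called lower and 0 higher, beside the 1.16% of all genes called, while 7 were lower and 8 higher at an unadjusted p under 0.05, or 31.9% beside 23.6% of all genes tested. Point estimates were split 23 lower and 24 higher, with a median log2 fold change of 0.01 (0.0051). DESeq2 called 4 lower, *Il27ra*, *Gab1*, *Fos* and *Zfp36*, and 2 higher, *Grb2* and *Myc*, beside 6.13% and 5.34% of all genes.

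Of the other ligands 0 of 5 tested genes were at an unadjusted p under 0.05, beside 23.6% of all genes tested. *Clcf1*, which encodes a cytokine that signals through LIFR and gp130, averaged 36.2 ± 22.7 and 73.4 ± 57.1 CPM (SD, n = 7 and n = 8), and its log2 fold change was 1.02 (SE 0.54, edgeR adjusted p = 0.271). Only 2 of 8 TauT-/- libraries lay above every TauT+/+ library, the near-identical TauT-/- male 1 (167 CPM) and female 1 (155 CPM). TauT-/- female 4 (7.7 CPM) lay below every TauT+/+ library. All 3 tested genes among the other receptors had negative values. *Il27ra*, the receptor chain for the related cytokine IL-27, which also uses gp130, averaged 8.23 ± 7.56 and 1.95 ± 0.917 CPM (SD, n = 7 and n = 8). That is a log2 fold change of −2.07 (SE 0.59, edgeR adjusted p = 0.0758), the most negative of the 47, and it was called without TauT+/+ male 3 (−2.30, adjusted p = 0.024). TauT+/+ male 3 had the least *Il27ra* of all libraries (0.822 CPM), and 0 of 8 TauT-/- libraries lay below every TauT+/+ library. The near-identical TauT+/+ male 1 and female 1 had the most (18.7 and 18.4 CPM).

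Kinases, STATs and adaptors numbered 10, with 6 lower and 4 higher point estimates. *Gab1*, a docking protein that carries the gp130 signal to other kinases, averaged 37.4 ± 12.9 and 22.5 ± 4.59 CPM (SD, n = 7 and n = 8), and its log2 fold change was −0.73 (SE 0.21, edgeR adjusted p = 0.0767). *Gab1* was called lower without TauT+/+ male 3 (−0.81, adjusted p = 0.0445) or male 4 (−0.87, adjusted p = 0.0398). Those libraries had the least *Gab1* of their genotype (28.6 and 18.4 CPM), and 2 of 8 TauT-/- libraries lay below every TauT+/+ library. *Shc1*, an adaptor, had a log2 fold change of −0.54 (edgeR adjusted p = 0.121), while *Grb2*, the adaptor that links receptors to Ras, had 0.58 (adjusted p = 0.0989). By voom with sample weights *Shc1* was called lower (−0.55, adjusted p = 0.045).

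Of 5 feedback inhibitors beside *Socs3*, 4 had lower and 1 a higher point estimate. *Cish*, a relative of SOCS3 that answers STAT5, had a log2 fold change of −0.61 (SE 0.28, edgeR adjusted p = 0.21), and *Ptpn2*, a phosphatase of JAK and STAT proteins, 0.31 (SE 0.13, adjusted p = 0.183). The 15 known STAT3 target genes had 11 higher and 4 lower point estimates and a median log2 fold change of 0.47, beside 0.00 (0.0049) for all genes. At an unadjusted p under 0.05, 5 were higher and 1 lower, beside 11.8% of all genes tested in each direction. The higher ones were *Myc* (0.90, edgeR adjusted p = 0.102), *Mcl1*, which protects cells from death (0.75, adjusted p = 0.178), *Cebpb* (0.74, adjusted p = 0.117), *Bcl3* (0.58, adjusted p = 0.133) and *Il4ra* (0.51, adjusted p = 0.117). *Fos*, an AP-1 subunit, was the lower one, with a log2 fold change of −1.93 (SE 0.66, edgeR adjusted p = 0.109). It averaged 351 ± 243 and 97.6 ± 77.6 CPM (SD, n = 7 and n = 8), with medians of 523 and 71.0 CPM. TauT+/+ male 3 (63.4 CPM), male 4 (34.1 CPM) and female 3 (191 CPM) lay inside the TauT-/- range of 11.5 to 207 CPM. The near-identical TauT+/+ male 1 and female 1 were both among the high values (534 and 548 CPM). Of the 5 higher genes, *Mcl1* (1414 CPM), *Cebpb* (338 CPM) and *Bcl3* (75.0 CPM) were highest in TauT-/- female 4. That library also had the highest macrophage sum. *Myc* was highest in the near-identical TauT-/- male 1 and female 1 (159 and 155 CPM). Of 8 TauT-/- libraries, 6 lay above every TauT+/+ library for *Mcl1*, 5 for *Bcl3*, 4 for *Cebpb* and *Myc* and 0 for *Il4ra*. Many of these target genes also answer other signals and are expressed by macrophages. *Il4ra* was called higher by voom (0.66, adjusted p = 0.0241).

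*Adam10* and *Adam17*, the proteases that shed the IL-6 receptor from the cell surface, had log2 fold changes of 0.12 (SE 0.15, edgeR adjusted p = 0.649) and 0.10 (SE 0.24, adjusted p = 0.837). Among 7 regulators of *Il6* transcription and mRNA decay, *Rela*, an NF-κB subunit, had a log2 fold change of 0.39 (SE 0.13, edgeR adjusted p = 0.108). *Zfp36*, whose product speeds the decay of cytokine mRNAs, averaged 333 ± 213 CPM (SD) in the 7 TauT+/+ libraries and 139.6 ± 66.0 CPM (SD) in the 8 TauT-/- libraries, a log2 fold change of −1.29 (SE 0.45, edgeR adjusted p = 0.112). TauT+/+ male 3 (95.35 CPM), male 4 (79.1 CPM) and female 3 (188.5 CPM) lay inside the TauT-/- range of 54.5 to 223 CPM. The near-identical TauT+/+ male 1 and female 1 were both among the high values (412 and 428 CPM).

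**Figure D5:**
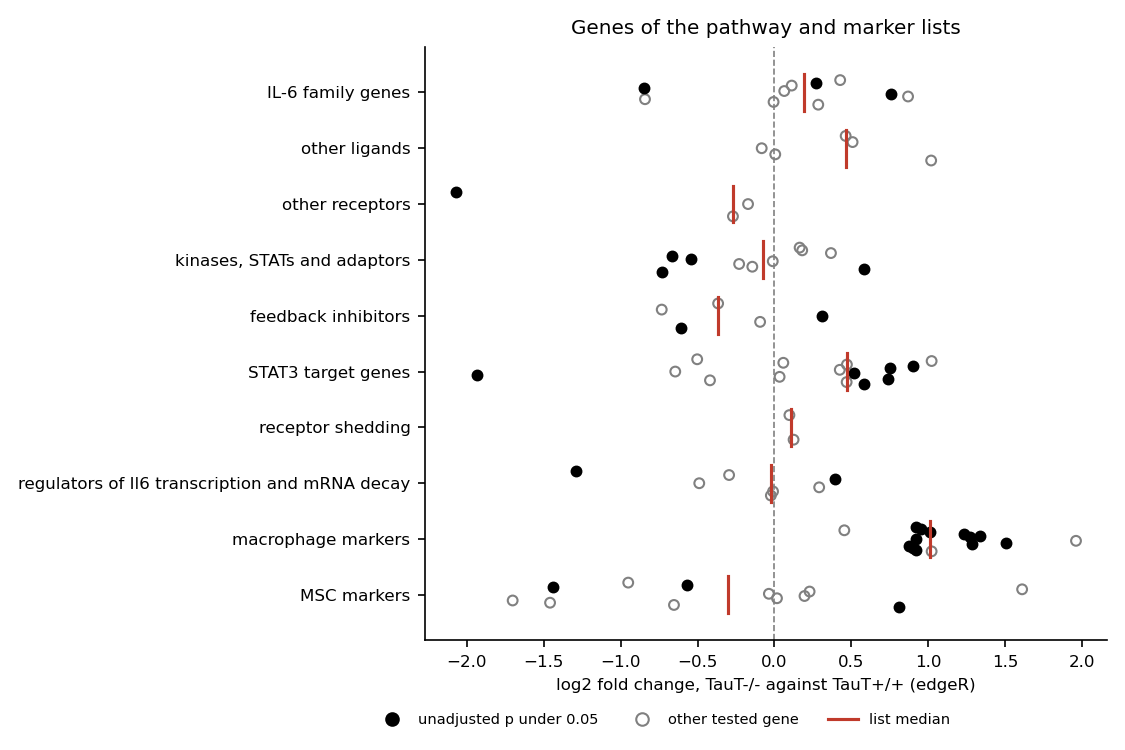
Log2 fold change by edgeR (horizontal axis) of every tested gene in each list, with filled points for an unadjusted p under 0.05, open points for other tested genes and a red line at the list median. Macrophage markers lie above 0 throughout (median 1.01), while the 10 IL-6 family genes spread on both sides of 0 (median 0.19).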

How the data were processed

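From MSC RNA the authors made full-length cDNA with oligo-dT priming, trimmed reads with fastp 0.23.1, aligned them with STAR 2.7.9a to GRCm39 with GENCODE M31, and counted them by strand with featureCounts of Subread 2.0.1. The deposited values are raw counts per gene, and 0 columns had no sample. The authors' own test was DESeq2 with sex and condition.

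The 15 libraries were compared with edgeR 4.0.16 in R 4.3.3 (TMM, filterByExpr by the 4 groups, quasi-likelihood, labelled sex and genotype as terms, two-sided) over 18263 genes, with Benjamini-Hochberg adjustment and a threshold of 0.05. The biological coefficient of variation was 0.494. Fits by sex label used 1 term per group. Alternatives used DESeq2 1.42.0 and voom of limma 3.58.1, other normalization, filters and models, and subsets of libraries. The statistics were tested on simulated counts of 18263 genes, of which 200 were changed 4-fold. Of these 200, edgeR called 130, DESeq2 151 and voom 136. Unchanged genes called were 4 by edgeR, 38 by DESeq2 and 5 by voom. Smaller changes and near-identical libraries were not simulated. The 10 genes and the lists were chosen with earlier results of these data known. The named pathway genes are those at an unadjusted p under 0.05 and, in lists with none, the 2 most abundant, and 2 genes of these lists are not reported here. Positions, exon lengths and promoter windows come from GENCODE M39 on GRCm39, and figures were drawn with matplotlib 3.10.9. Depth was 12761107 to 101575071 counts per library. No intervals for counting error are given, since the spread between libraries exceeds it.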

Additional observations from a re-analysis of the deposited data

Results flagged for a closer look

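In groups of 4 libraries the gap between an extreme library and its nearest neighbour was divided by the whole range of the group, and values above Dixon's critical value (95%) were marked. This was done for 28 results in 3 groups, or 84 groups, of which chance marks about 4.2, and 4 were marked. *Il11* stood apart in TauT-/- male 3 (gap 0.971 of the range, 6.18 CPM) and in TauT+/+ male 3 (0.914, 7.11 CPM). *Cish* stood apart in TauT+/+ male 2 (0.931, 28.6 CPM). *Ptpn2* stood apart in TauT-/- female 4 (0.898, 45.4 CPM), the library with the highest summed macrophage markers.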

How the results depend on the processing

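Under every alternative run, 0 of the 10 genes were called. *Lif*, *Osm*, *Il6ra*, *Lifr*, *Stat3* and *Socs3* kept their sign in 28 of 28 alternatives. The lowest adjusted p in any alternative was 0.0513 for *Il6ra* (DESeq2), 0.0587 for *Stat3* (voom), 0.0881 for *Lif* (replicate block) and 0.091 for *Lifr* (voom), and the highest were 0.631, 0.8287, 0.758 and 0.644.

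The count of all genes called moved with the setting. DESeq2 called 1120 lower and 976 higher, and of the pathway lists 4 and 2. Voom with sample weights called 535 and 659, and of the pathway lists 1 and 1. Without a filter the calls were 42 and 32, with at least 10 counts in every library 200 lower, and without a sex term 202 and 208. Without the male-labelled libraries of the near-identical pairs they were 0 and 2 (1697 and 1811 at an unadjusted p under 0.05), and without the female-labelled ones 0 and 7 (1880 and 1938). Without the 3 libraries with discordant sex-linked genes they were 0 and 0 (1589 and 1695), in male-labelled libraries alone 0 and 0 (630 and 648) and in female-labelled libraries alone 0 and 0 (1016 and 998), all by edgeR. Leaving out each library in turn gave 4 (without TauT+/+ female 1 or 2) to 766 (without TauT+/+ male 3) lower and 8 to 470 higher, and 0 to 3 pathway genes lower. Of the 30 most alike genes 16 stayed without TauT+/+ male 1 and TauT-/- male 1. Filtering on the model matrix, added after the data were seen, tested 17204 genes and called 129 and 94.

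Only 4 genes changed sign. *Il6* went to −0.15 in female-labelled libraries alone (−0.1458), and its range over left-out libraries was −0.15 to 0.62 (−0.01 without TauT-/- male 3). *Osmr* went to −0.064 without the 3 libraries, and over left-out libraries it ran from −0.0035 (TauT+/+ male 3) to 0.19. *Il6st* went to −0.21 by voom, −0.077 and −0.18 without the male-labelled or female-labelled libraries of the near-identical pairs and −0.23 without the 3 libraries. Leaving out single libraries moved *Il6st* from −0.25 to 0.29, with −0.07 without TauT+/+ male 3, TauT-/- male 1 or TauT+/+ female 3 (−0.06) and −0.01 without TauT+/+ male 4. *Il11* went to 0.65 by voom, 0.012 without the male-labelled libraries of the near-identical pairs, 0.44 without the 3 libraries and 0.34 in female-labelled libraries alone. Leaving out single libraries moved *Il11* from −1.38 to 1.11, with 0.17 without TauT-/- male 1 or male 2, 0.22 without TauT-/- male 4, 0.32 without TauT+/+ female 3, 0.10 without TauT-/- female 1 and 0.06 without TauT-/- female 4. The cause of these changes was not tested.

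Replicate numbers were not taken to pair the libraries, since no label ties them and deviations of same-numbered libraries correlated above 0.1 in the 4 male-labelled pairs (0.17 to 0.63) and 1 female-labelled pair (0.31) but not in the others (0.096 and −0.04). As a hint from the data, 11 of 14 libraries correlated best with their own number. With the replicate block 102 genes were called lower and 69 higher, 0 of the 10 among them, with log2 fold changes of −1.25 for *Lif* (unadjusted p = 0.00763, edgeR adjusted p = 0.0881), 0.60 for *Il6ra* (0.0472, adjusted 0.185), −0.80 for *Lifr* (0.0112, adjusted 0.0999) and 0.26 for *Stat3* (0.0539, adjusted 0.197). The order of levels was the same with plain library sizes, where 0 genes changed place. *Il11* was not tested with at least 10 counts in every library. Another pseudocount for genes below the filter was not run, as all 10 passed.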
